A study of Mus musculus with 6 samples.

Results

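The expression of Dot1l and of 9 genes whose products work with it was followed in 6 RNA-seq libraries of mouse endothelial cells. The 10 genes were chosen by name from the 24421 gene symbols of the count table, and all of them had a row: Dot1l, its cofactors Mllt1, Mllt3, Mllt6 and Mllt10, and the elongation factors Aff1, Aff4, Ell, Cdk9 and Ccnt1. Blood endothelial cells (BECs) of E15.5 embryo skin gave 1 library of Tie2-Cre(-); Dot1l 2f/2f cells (Cont) and 1 of Tie2-Cre(+); Dot1l 2f/2f cells (cKO). Both thus carry the floxed Dot1l alleles, while the sample labels call the control wild type, and Tie2-Cre is also active in cells of the blood lineage. Each skin library holds RNA pooled from 2 to 3 embryos. BECs of the embryonic yolk sac line CRL-2581 and lymphatic endothelial cells of embryonic dermis (LECs, C57-6064L) were transduced in culture with an empty lentivirus (Cont) or with a lentivirus for Dot1l overexpression (OE-BECs and OE-LECs), and GFP-positive cells of 2 to 3 flasks were pooled for each library. The overexpression vector carries a catalytically dead Cas9 fused to the activator VP64, with guide RNAs to the Dot1l promoter, so the endogenous gene is the target. Each of the 6 conditions has 1 library. No difference between conditions could be tested against the spread between replicates, and every comparison describes a pair of libraries.

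Dot1l is the enzyme that methylates lysine 79 of histone H3, a mark placed over the bodies of transcribed genes. It works in a complex with AF10 (Mllt10) or AF17 (Mllt6), which bind it through a coiled coil and favour the higher methylation states, and with AF9 (Mllt3) or ENL (Mllt1), whose YEATS domains read acetylated histones. AF9 and ENL use the same C-terminal domain to bind either Dot1l or the scaffolds of the super elongation complex, AF4 (Aff1) and its relative encoded by Aff4. That complex brings the elongation factor Ell and the kinase P-TEFb, made of Cdk9 and cyclin T1 (Ccnt1), to paused RNA polymerase II. Several of these genes are known as fusion partners of the methyltransferase MLL1 in leukaemia.

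Total counts ran from 8863349 reads (Cont BECs, skin) to 31032461 reads (OE-LECs). Levels are given as CPM (counts per 1000000 counted reads), which allow a gene to be compared between libraries. The total includes the ribosomal RNA gene Rn45s, which took 5.91% of reads in cultured Cont BECs and 10.9% in OE-BECs. In the other libraries it took 0.570% or less, and CPM comparisons across cell sources were not repeated without it. Each log2 ratio is that of counts normalized with the median of ratios on the pair of libraries, changed over control, with an exact 95% interval from the reads of both. A ratio is called beyond counting error when its interval leaves out 0. Such intervals cover counting error only, since each condition has 1 library. Reads of PCR products without molecular identifiers are not independent molecules, so the intervals may understate even this error. The 9 pan-endothelial markers were detected in all 6 libraries, with a summed level of 5999 CPM in Cont and 3756 CPM in the cKO-labelled library, and of 5343 to 7942 CPM in the cultured libraries. All 6 macrophage markers were also present in the skin libraries, although the cells had been depleted with antibodies to F4/80 and CD45, with 3436 CPM in Cont and 5242 CPM in the cKO-labelled library, against 33.8 to 93.8 CPM in the cultured libraries. Of 7 lymphatic markers, 6 were detected in both skin libraries labelled BECs (2788 and 3246 CPM in all), among them Prox1, the factor that defines lymphatic identity, with 1304 reads in Cont and 883 reads in the cKO-labelled library. The cultured LEC libraries had a lymphatic sum of 2105 CPM in Cont and 2093 CPM in OE, above the 749 and 1160 CPM of the cultured BEC libraries, and Lyve1 and Flt4 alone passed 3 reads there. Prox1 and Pdpn had 0 reads in both LEC libraries, which allows up to 0.115 CPM in Cont and 0.0967 CPM in OE (3 reads), while Ccl21a had 0 reads in all 6 libraries. Against these markers, BEC and LEC are used as the names the labels give. In bulk RNA, fewer cells of a type and less RNA per cell cannot be told apart.

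The promoters of Dot1l and Mllt3 are shown because these were the members that changed most in both overexpression pairs, and because VP64 was directed to the first of them. Each sequence is the 250 bases upstream of a RefSeq transcription start (GRCm38.p6), read along the strand of the gene. Capitals mark the GC box letters GGGCGG or, for the opposite strand, CCGCCC, and overlapping matches are joined. The Dot1l window lies at chr10:80754953-80755202 on the plus strand and the Mllt3 window at chr4:88033408-88033657 on the minus strand.
Dot1l: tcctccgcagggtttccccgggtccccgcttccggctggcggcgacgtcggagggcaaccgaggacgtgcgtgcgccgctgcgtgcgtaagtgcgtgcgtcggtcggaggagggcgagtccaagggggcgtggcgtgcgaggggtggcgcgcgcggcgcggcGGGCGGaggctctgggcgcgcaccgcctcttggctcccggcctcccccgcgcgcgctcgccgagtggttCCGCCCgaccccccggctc
Mllt3: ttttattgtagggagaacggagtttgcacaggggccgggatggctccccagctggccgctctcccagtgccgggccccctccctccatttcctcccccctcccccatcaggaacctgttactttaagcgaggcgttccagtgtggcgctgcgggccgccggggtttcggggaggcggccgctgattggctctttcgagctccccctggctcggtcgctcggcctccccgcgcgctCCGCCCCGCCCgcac
The Dot1l window holds 1 match on each strand and 44 CpG dinucleotides, a number reached by 0.539% of the 32851 promoter windows of the same length, whose median is 6. The Mllt3 window holds 2 overlapping matches, both on the opposite strand, and 23 CpG dinucleotides, a number reached by 13.3% of the windows. At least 1 match was found in 32.7% of all windows and in 10 of the 14 windows of the member genes. This Mllt3 start lies 43 bases upstream of the GENCODE start, so only the 7 bases of the RefSeq record that reach into the annotated gene could be compared with a transcript, and they matched its first bases. A second Mllt3 window further into the gene, at chr4:87806324-87806573, holds none and 4 CpG dinucleotides. The guide sequences were not used here.

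Dot1l, on chromosome 10 of mm10 from 80755206 to 80795461 on the plus strand, lay between 85.2 and 112 CPM in the controls and the cKO-labelled library and was higher in both overexpression libraries. Its level was 86.0 CPM in Cont BECs of skin, 85.2 CPM in the cKO-labelled library, 112 CPM in cultured Cont BECs, 302 CPM in OE-BECs, 95.3 CPM in Cont LECs and 217 CPM in OE-LECs. Only the skin libraries, which are the lowest, did not differ from their neighbour in this order beyond counting error. In the cKO-labelled library the log2 ratio was -0.07 (interval -0.21 to 0.07), from 762 reads in Cont and 944 in cKO. The whole-gene count was thus near that of Cont, and a log2 ratio below -0.21 lies outside counting error. The counts cover all exons together, the deleted ones included, and the library is therefore called by its label. The study checked the knockout by RT-qPCR of Dot1l relative to Gapdh, without replicates. Gapdh was itself 1.70-fold higher in the cKO-labelled library (log2 ratio 0.76, interval 0.67 to 0.85). Its part in that check was not tested. The log2 ratio of Dot1l was 1.48 (interval 1.40 to 1.55) in OE-BECs and 1.20 (interval 1.13 to 1.27) in OE-LECs. Of the genes that reached 100 normalized counts in either library of a pair, 0.638% of 9867 in BECs and 0.981% of 10503 in LECs had a ratio as high, Dot1l included.

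**Figure D1:**
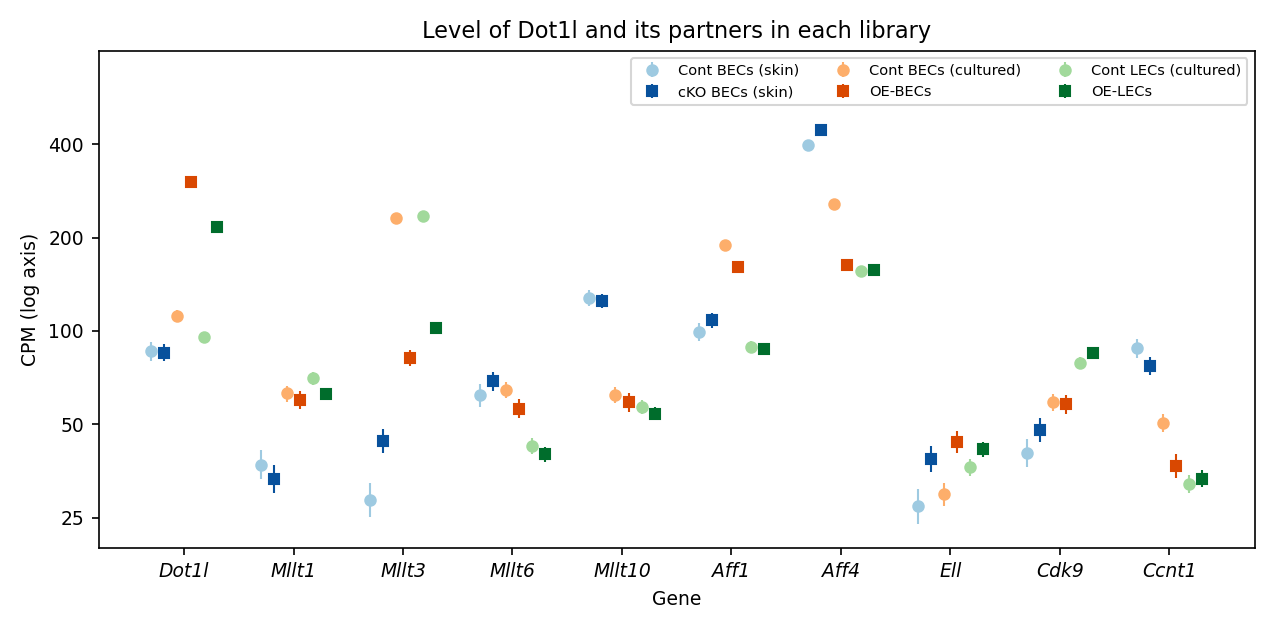
Level of each of the 10 genes (horizontal axis) in CPM on a log axis, with 1 point per library and bars for the exact 95% Poisson interval of its reads; circles are control libraries and squares the changed ones. Dot1l is highest in OE-BECs (302 CPM) and OE-LECs (217 CPM), while Mllt3 is highest in the cultured controls (232 and 234 CPM) and lower in both overexpression libraries.

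Among the partners, Mllt3 changed most in every pair. Mllt3 encodes AF9, a YEATS reader of acetylated histones, and lies on chromosome 4 from 87769925 to 88033364 on the minus strand. It had 28.5 CPM in Cont BECs of skin, 44.1 CPM in the cKO-labelled library, 232 CPM in cultured Cont BECs, 81.7 CPM in OE-BECs, 234 CPM in Cont LECs and 102 CPM in OE-LECs. On totals that include Rn45s, the cultured controls of both lines did not differ beyond counting error (log2 ratio of CPM 0.02, interval -0.04 to 0.07). Rn45s took 5.91% of reads in cultured Cont BECs and 0.0534% in Cont LECs. It thus lowers the CPM of other genes more in Cont BECs, and the Mllt3 levels of these controls are not called alike. Both overexpression libraries lay below these controls and above the skin libraries. In normalized counts Mllt3 was 2.76-fold lower in OE-BECs (3591 in Cont and 1301 in OE, log2 ratio -1.46, interval -1.56 to -1.37) and 2.26-fold lower in OE-LECs (6634 and 2933, log2 ratio -1.18, interval -1.24 to -1.12). Of the same genes, 1.86% in BECs and 0.514% in LECs had a ratio as low. The skin pair went the other way, with a level 1.49-fold higher in the cKO-labelled library (288 and 429 normalized counts, log2 ratio 0.57, interval 0.35 to 0.80). All 6 macrophage markers were higher and 8 of 9 pan-endothelial markers lower beyond counting error in the same library (1 higher). Of all genes 23.1% were higher and 25.4% lower. Lower too were 4 of 5 blood endothelial, 4 of 5 fibroblast (1 higher), 4 of 4 pericyte and 2 of 4 skeletal muscle markers. Of 7 lymphatic markers 2 were higher and 4 lower, and of 6 keratinocyte markers 3 and 1. The part of these cell types in the Mllt3 difference was not tested.

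Mllt1, the paralogue of Mllt3 that encodes ENL (chromosome 17, 56892611 to 56935415), moved little. Its levels were 37.1 and 33.4 CPM in the Cont and cKO libraries of skin, 62.9 CPM in cultured Cont BECs and 60.0 CPM in OE-BECs, and 70.3 CPM in Cont LECs and 62.6 CPM in OE-LECs. The log2 ratio was -0.21 (interval -0.43 to 0.01) in the cKO-labelled library and -0.03 (interval -0.16 to 0.10) in OE-BECs. In OE-LECs it was -0.15 (interval -0.24 to -0.06), which is beyond counting error.

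The split of reads between these paralogues, which is free of the scaling between libraries, therefore differed. Mllt3 took 78.7% of the reads of the pair in cultured Cont BECs (exact interval 77.5% to 79.8%) and 57.7% in OE-BECs (55.5% to 59.9%). In LECs its share was 76.9% in Cont (76.0% to 77.9%) and 62.0% in OE (60.7% to 63.4%). In skin it was 43.5% in Cont (39.4% to 47.6%) and 56.9% in the cKO-labelled library (53.5% to 60.3%). Per kilobase of annotated exon, Mllt3 made up 54.6% of the pair in cultured Cont BECs and 52.1% in Cont LECs, against 30.8% and 34.8% in OE-BECs and OE-LECs. Per kilobase of the longest transcript these shares were 68.8%, 66.6%, 44.9% and 49.5%, so Mllt3 was the larger member of the pair in both cultured controls by either length. It was the smaller in OE-BECs by either length, and in OE-LECs only per kilobase of annotated exon, since the interval by the longest transcript (48.1% to 50.9%) includes equal shares. In skin the share of Mllt3 per kilobase of annotated exon was 20.1% in Cont and 30.1% in the cKO-labelled library. By the longest transcript it was 31.5% and 44.2%, so Mllt3 was the smaller in both skin libraries by either length.

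**Figure D2:**
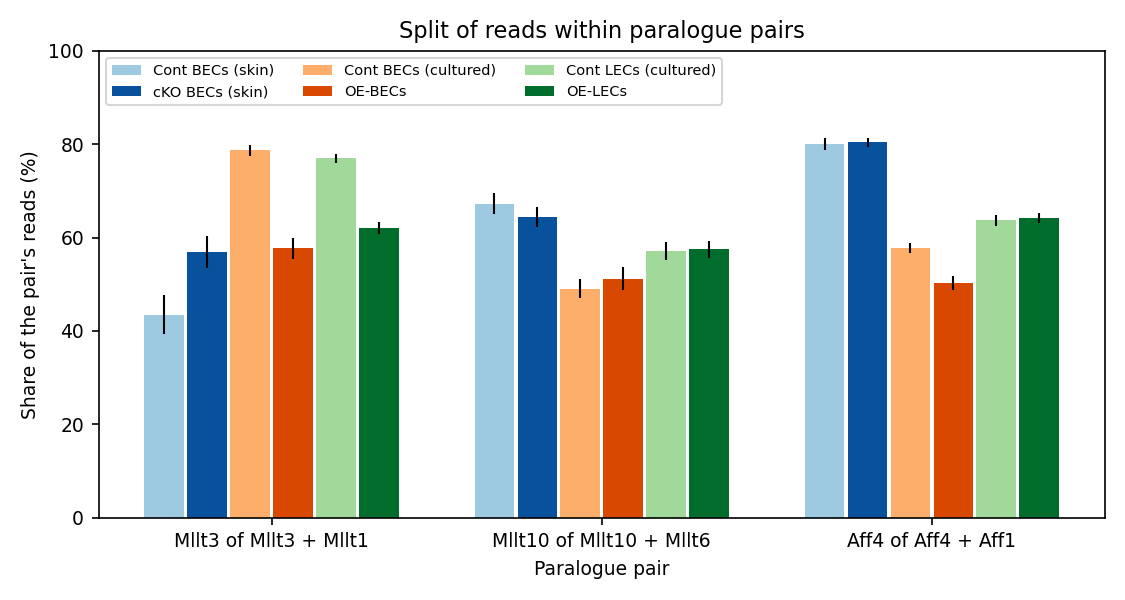
Share (%) of the reads of 3 paralogue pairs that falls on the first gene named, with 1 bar per library and error bars for the exact 95% binomial interval. The share of Mllt3 is 78.7% and 76.9% in the cultured controls and 57.7% and 62.0% after overexpression, while that of Mllt10 stays between 49.1% and 57.5% in the 4 cultured libraries.

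The PHD finger cofactors that bind Dot1l through the coiled coil differed little within each pair, and Mllt10 differed between skin and culture. Mllt10 (AF10; chromosome 2, 18055237 to 18212388) had 128 and 125 CPM in the Cont and cKO libraries of skin, 62.3 and 58.9 CPM in Cont and OE-BECs, and 57.0 and 54.0 CPM in Cont and OE-LECs. Both skin libraries lay above the 4 cultured ones. Its log2 ratios of -0.09 (interval -0.20 to 0.02), -0.04 (interval -0.17 to 0.09) and -0.06 (interval -0.16 to 0.04) in the cKO-labelled library, OE-BECs and OE-LECs all included 0. Of the Mllt10 exons, 12.7% overlap exons of Dnajc1 on the opposite strand, so part of its reads may be uncertain if strand was not used in counting. On totals that include Rn45s, Mllt6 (AF17; chromosome 11, 97663414 to 97685463) ranged least but for Ell, from 40.0 CPM in OE-LECs to 68.8 CPM in the cKO-labelled library. Its ratio was beyond counting error only in OE-BECs, where it was -0.16 (interval -0.30 to -0.03) and the levels were 64.6 CPM in Cont and 56.1 CPM in OE. Scaled by total counts without Rn45s, this ratio was -0.12 and its interval included 0.

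The number of Dot1l reads per cofactor read was higher for all 4 cofactors in both overexpression libraries. Dot1l itself, the target of the vector, was 2.78-fold higher in OE-BECs and 2.30-fold in OE-LECs in normalized counts. A higher ratio thus follows for any gene that did not rise with it, and is by itself no result about the cofactors. The ratio to Mllt3 differed by more, since Mllt3 was also lower. For Mllt3 there were 0.481 Dot1l reads per read in cultured Cont BECs (interval 0.456 to 0.508) and 3.69 in OE-BECs (3.46 to 3.95), a 7.68-fold difference with an interval of 7.06 to 8.36. In LECs the ratio was 0.407 in Cont and 2.12 in OE, a 5.20-fold difference (4.89 to 5.54). For Mllt1, Mllt6 and Mllt10 the difference was 2.84-, 3.12- and 2.86-fold in BECs and 2.55-, 2.43- and 2.40-fold in LECs. In the skin pair the ratio to Mllt3 was 3.01 in Cont and 1.93 in the cKO-labelled library, which is 0.641 of the control value (0.536 to 0.767). The ratios to the other cofactors there were 0.895 to 1.10 times the control values, and their intervals included 1.

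**Figure D3:**
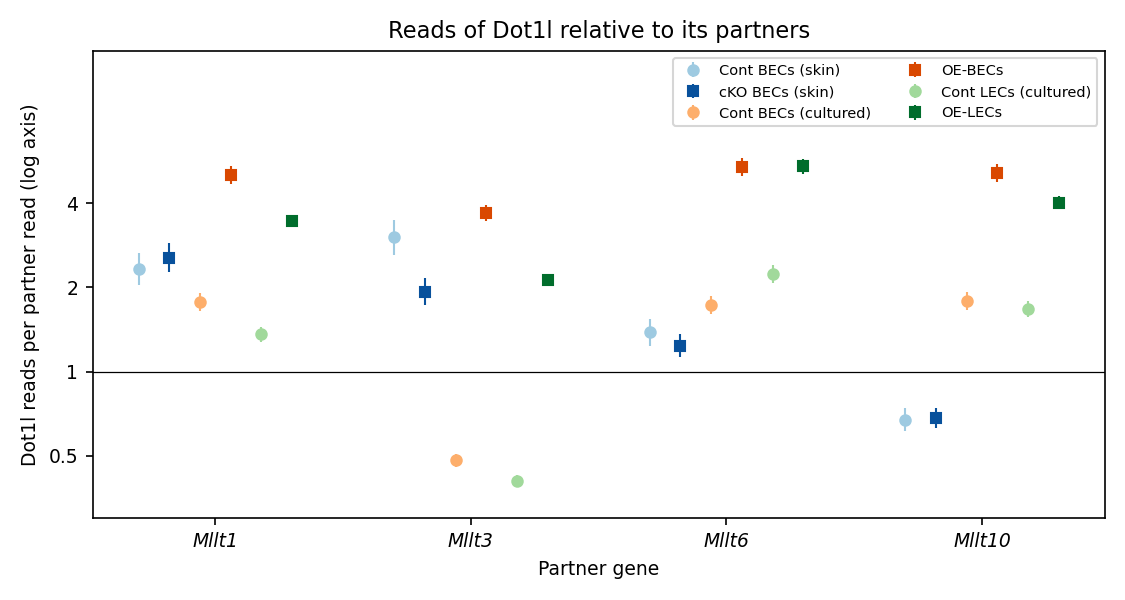
Reads of Dot1l per read of each cofactor gene (log axis), with 1 point per library and bars for the exact 95% interval; circles are controls and squares the changed libraries, and the horizontal line marks equal reads. The ratio to Mllt3 is under 1 in the cultured controls (0.481 and 0.407) and over 2 after overexpression (3.69 and 2.12).

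Of the scaffolds of the super elongation complex, Aff4 was the member with the most reads in skin and differed in 1 overexpression pair. Aff4 (chromosome 11, 53350833 to 53421830) had 398 CPM in Cont BECs of skin, 444 CPM in the cKO-labelled library, 257 CPM in cultured Cont BECs, 163 CPM in OE-BECs, 156 CPM in Cont LECs and 157 CPM in OE-LECs. On totals that include Rn45s, the CPM of OE-BECs did not differ from that of OE-LECs beyond counting error. Rn45s took 10.9% of reads in OE-BECs and 0.0632% in OE-LECs. It thus lowers the CPM of other genes more in OE-BECs, and the Aff4 levels of these libraries are not called alike. The log2 ratio was -0.62 in OE-BECs (interval -0.69 to -0.55), 0.02 in OE-LECs (interval -0.04 to 0.08) and 0.10 in the cKO-labelled library (interval 0.04 to 0.17). Aff1, which encodes AF4 (chromosome 5, 103692374 to 103855322), was highest in the cultured BEC libraries, at 189 CPM in Cont and 161 CPM in OE, against 87.7 to 108 CPM in the other 4. Its ratio in OE-BECs was -0.19 (interval -0.27 to -0.11), and those of the other pairs, 0.07 in the cKO-labelled library and -0.00 in OE-LECs, included 0. Aff4 took 57.7% of the reads of both scaffolds in cultured Cont BECs (56.6% to 58.8%) and 50.4% in OE-BECs (48.9% to 51.8%), while its share was 63.8% and 64.1% in Cont and OE-LECs and 80.1% and 80.4% in the Cont and cKO libraries of skin.

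Ell was the member that was higher beyond counting error in all 3 pairs. It encodes an elongation factor that suppresses pausing of RNA polymerase II (chromosome 8, 70539457 to 70592858). Its levels were 27.2 and 38.6 CPM in the Cont and cKO libraries of skin, 29.8 and 43.9 CPM in Cont and OE-BECs, and 36.4 and 41.6 CPM in Cont and OE-LECs. In CPM the 3 changed libraries were the highest of the 6, but neighbours in the order OE-BECs, OE-LECs, cKO-labelled library and Cont LECs did not differ beyond counting error. Rn45s took 10.9% of reads in OE-BECs and 0.0632% in OE-LECs, which lowers the CPM of other genes more in OE-BECs. The Ell levels of these libraries are therefore not called alike. The log2 ratio was 0.45 (interval 0.22 to 0.68) in the cKO-labelled library, 0.60 (interval 0.43 to 0.77) in OE-BECs and 0.21 (interval 0.09 to 0.33) in OE-LECs. Dot1l itself was higher in only the last 2 of these.

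The subunits of P-TEFb, the kinase that releases paused polymerase, did not change together. Cdk9, its kinase (chromosome 2, 32705784 to 32713076), had 40.5 and 48.0 CPM in the Cont and cKO libraries of skin, 58.9 and 58.0 CPM in Cont and OE-BECs, and 79.1 and 85.1 CPM in Cont and OE-LECs. Its log2 ratio was beyond counting error only in OE-LECs (0.12, interval 0.04 to 0.21); it was 0.02 (interval -0.12 to 0.15) in OE-BECs and 0.19 (interval -0.01 to 0.39) in the cKO-labelled library, where the 4 other scalings tried gave 0.20 to 0.24 with intervals above 0. Ccnt1, its cyclin (chromosome 15, 98538689 to 98570923), had 88.1 and 77.0 CPM in the skin libraries, 50.4 and 36.7 CPM in Cont and OE-BECs, and 32.2 and 33.4 CPM in Cont and OE-LECs. The ratio was -0.25 (interval -0.39 to -0.11) in the cKO-labelled library, -0.42 (interval -0.58 to -0.26) in OE-BECs and 0.07 (interval -0.06 to 0.21) in OE-LECs. An antisense gene, 9330020H09Rik, overlaps 7.59% of the Ccnt1 exons and had 48 to 128 reads.

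**Figure D4:**
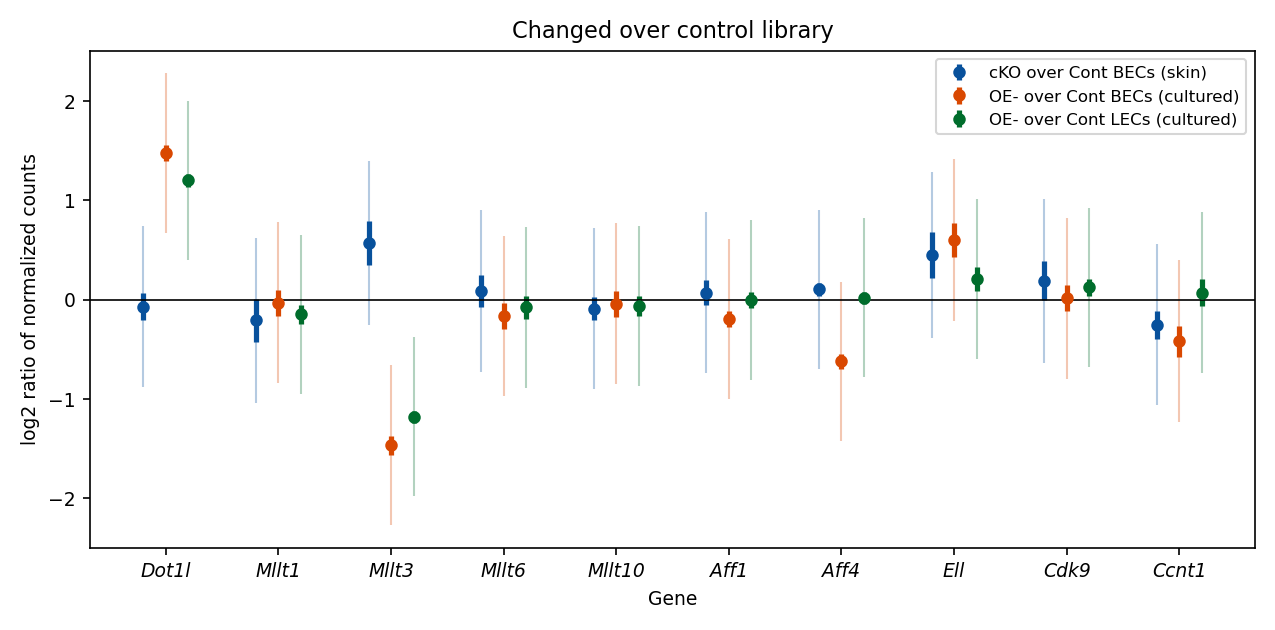
Log2 ratio of normalized counts, changed over control library, for each gene (horizontal axis) in the 3 pairs; thick bars are exact 95% counting intervals, and thin lines add an assumed coefficient of variation of 0.2 between biological samples. Only Dot1l (1.48 and 1.20) and Mllt3 (-1.46 and -1.18) keep their thin lines clear of 0, in both overexpression pairs.

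Counted over the 10 genes, 3 were higher (Mllt3, Aff4 and Ell) and 1 lower (Ccnt1) beyond counting error in the cKO-labelled library. Of all 15554 genes with at least 10 reads in that pair, 23.1% were higher and 25.4% lower by the same criterion, and of the 10212 genes with at least 100 normalized counts, which all members reach, 25.6% and 33.5%. In OE-BECs 2 members were higher (Dot1l and Ell) and 5 lower (Mllt3, Mllt6, Aff1, Aff4 and Ccnt1), against 27.4% and 30% of all genes (30.6% and 35.1% at 100 normalized counts). In OE-LECs 3 were higher (Dot1l, Ell and Cdk9) and 2 lower (Mllt1 and Mllt3), against 24.2% and 21.4% of all genes (27.8% and 24.5%). Over 10 genes, counts this near to the background are no result about the set. The median log2 ratio of the members was 0.08, -0.10 and 0.01 in the cKO-labelled library, OE-BECs and OE-LECs, beside 0.00, -0.01 and 0.00 over all genes tested.

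By size, no member passed the more than 3-fold change by which the study's methods define changed genes, which 5.17% of genes passed upward and 2.41% downward in the cKO-labelled library, while OE-BECs had 8.02% and 5.27% and OE-LECs 2.77% and 2.09%. A change of more than 1.5-fold beyond counting error was reached in OE-BECs by Dot1l and Ell upward and by Mllt3 and Aff4 downward, where 7.25% and 11% of genes with at least 100 normalized counts did so. Ell and Aff4 lay near this limit: Ell was under 1.5-fold with total counts (log2 ratio 0.56) and Aff4 with total counts without Rn45s (log2 ratio -0.58). In OE-LECs it was reached by Dot1l upward and Mllt3 downward, with a background of 3.72% and 3.05%. In the cKO-labelled library no member reached it, with a background of 8.88% and 7.69%. The intervals hold no variation between cultures or embryos. When a coefficient of variation of 0.2 between biological samples was assumed for each library, the widened interval of the log2 ratio left out 0 for Dot1l (0.67 to 2.28 in OE-BECs, 0.40 to 2.0 in OE-LECs) and Mllt3 (-2.27 to -0.66 and -1.98 to -0.38), and for no other member in any pair.

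The sizes of the responses in the lines were set against each other as the difference between the log2 ratios of OE-BECs and OE-LECs. The difference was beyond counting error for 6 members: Dot1l (0.27, interval 0.17 to 0.38), Ell (0.39, interval 0.18 to 0.60), Mllt3 (-0.29, interval -0.40 to -0.17), Aff1 (-0.19, interval -0.30 to -0.08), Ccnt1 (-0.49, interval -0.70 to -0.29) and Aff4 (-0.64, interval -0.74 to -0.55). Dot1l and Mllt3 thus both moved further in OE-BECs, and of the overexpression libraries OE-BECs alone had lower Aff4 and Ccnt1. For the other 4, Mllt1, Mllt6, Mllt10 and Cdk9, the difference lay between -0.11 and 0.12 with intervals that include 0. With the assumed coefficient of variation of 0.2, no difference was left beyond its interval. In OE-BECs all 9 pan-endothelial and all 5 blood endothelial markers were lower too, and in OE-LECs 8 of 9 and 4 of 5. The ribosomal RNA gene Rn45s took 5.91% of reads in cultured Cont BECs and 10.9% in OE-BECs. With total counts without Rn45s, all 6 differences were still beyond counting error, at -0.58 for Aff4, -0.43 for Ccnt1, -0.23 for Mllt3, -0.13 for Aff1, 0.33 for Dot1l and 0.45 for Ell. The part of the endothelial markers in these differences was not tested.

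Between the control libraries, the largest difference among the members was that of Mllt3, which was 8.12-fold higher in CPM in cultured Cont BECs than in Cont BECs of skin (log2 ratio of CPM 3.02, interval 2.84 to 3.21). Aff1 (1.91-fold), Mllt1 (1.69-fold), Cdk9 (1.45-fold) and Dot1l (1.30-fold) were also higher in culture. Mllt10 was 2.05-fold, Ccnt1 1.75-fold and Aff4 1.55-fold lower, while Mllt6 and Ell did not differ beyond counting error. Fresh and cultured cells, their origin and the cell types in them cannot be told apart in this comparison. Fibroblast markers summed to 949 to 1324 CPM in the skin libraries and to 2.83 to 20.3 CPM in the cultured ones. Between the cultured controls, Aff1 was 2.12-fold, Aff4 1.65-fold, Ccnt1 1.57-fold and Mllt6 1.51-fold lower in Cont LECs, and Cdk9 was 1.34-fold and Ell 1.22-fold higher. Smaller differences beyond counting error were those of Dot1l (1.17-fold lower), Mllt10 (1.09-fold lower) and Mllt1 (1.12-fold higher). The smallest may depend on the scaling, since these totals include Rn45s.

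Levels of different genes were compared per kilobase of annotated exon and 1000000 reads (RPKM). In Cont BECs of skin, Aff4 was the highest member at 29.6 RPKM and Mllt3 the lowest at 2.38 RPKM, a 12.4-fold range, with Dot1l at 9.88 RPKM. In cultured Cont BECs the members lay closer together, from Aff1 (19.9 RPKM) and Mllt3 (19.3 RPKM) at the top to Ccnt1 (5.50 RPKM), with Dot1l at 12.8 RPKM. In Cont LECs Mllt3 was highest at 19.5 RPKM and Ccnt1 lowest at 3.51 RPKM, with Dot1l at 11.0 RPKM. Dot1l thus lay in the middle of the order in the controls and was the highest member in both OE-BECs (34.7 RPKM) and OE-LECs (24.9 RPKM). With the length of the longest transcript in place of all exons, Dot1l again came first in both overexpression libraries, Aff4 and Mllt3 again marked the extremes in skin, and Mllt3 moved to the top in cultured Cont BECs.

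The other genes of the pathway were followed in 8 lists with 54 genes, of which 53 had a row; Rn7sk, the RNA that holds P-TEFb inactive, is not reported. OE-BECs had 16 of 53 genes higher and 13 lower beyond counting error, OE-LECs 12 and 15 of 53, and the cKO-labelled library 6 and 13 of 52 with at least 10 reads. Over all genes these shares were 27.4% and 30%, 24.2% and 21.4%, and 23.1% and 25.4%. Their median log2 ratios were -0.01, 0.02 and -0.06. The list of 7 further subunits of the super elongation complex family had 3 genes higher and 1 lower in OE-BECs, 2 of each in OE-LECs, and 2 and 0 in the cKO-labelled library. Among them Aff3, a relative of Aff4, was higher in OE-BECs (534 and 840 reads, log2 ratio 1.04, interval 0.88 to 1.20) and in the cKO-labelled library (59 and 132 reads, log2 ratio 0.78, interval 0.33 to 1.25). Of 12 pausing and elongation factors, OE-BECs had 4 higher and 2 lower, OE-LECs 2 and 4, and the cKO-labelled library 0 and 4. Nelfa among them, a subunit of the pausing factor NELF, was higher by more than 1.5-fold in OE-BECs (599 and 690 reads, log2 ratio 0.59, interval 0.43 to 0.75). Ctnnb1, which encodes beta-catenin and is in the list of 4 other proteins reported with Dot1l, was lower in OE-BECs (29784 and 9327 reads, log2 ratio -1.29, interval -1.33 to -1.26), and by less in OE-LECs (43346 and 35223 reads, log2 ratio -0.53) and the cKO-labelled library (11091 and 11600 reads, log2 ratio -0.31). Of that list 1 gene was higher and 2 lower in OE-BECs, 2 of each in OE-LECs, and 1 and 2 in the cKO-labelled library.

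No other gene of the lists changed by more than 1.5-fold with at least 100 normalized counts. With 4 to 12 genes in a list and backgrounds of 21.4% to 30% in each direction, the counts by list are given as a description and are no result about any list. Of 4 genes for the 7SK particle, which sequesters P-TEFb, 1 was higher and 2 lower in OE-BECs, 2 lower in OE-LECs and none beyond counting error in the cKO-labelled library. Of the 6 genes of the PAF1 complex, which travels with elongating polymerase, OE-BECs had 3 higher and 0 lower, OE-LECs 2 and 0, and the cKO-labelled library 1 and 2. The 6 genes listed for histone H2B ubiquitination, the mark that stimulates Dot1l, include Usp22, which encodes an enzyme that removes the mark. Of the 6, OE-BECs had 1 higher and 4 lower, OE-LECs 1 of each, and the cKO-labelled library 0 and 2. Usp22 was among those lower in OE-BECs and the cKO-labelled library, and was the 1 higher in OE-LECs. The 8 genes of the MLL1 and menin complex had 3 higher and 0 lower in OE-BECs, while OE-LECs had 1 and 2 and the cKO-labelled library 0 and 1. The 6 other kinases and cyclins of the polymerase tail had 0 higher and 2 lower in OE-BECs and 2 of each in the other pairs.

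The genes whose pattern over the 6 libraries lay nearest to that of Dot1l were Loxl3, Cacnb3, Lmna, Cobl and Cdk6, by the distance between centred log2 values of CPM with 1 added among 8926 genes with at least 5 CPM in every library. The nearest, Loxl3, a lysyl oxidase relative, had 8.91 and 13.1 CPM in the skin libraries, 20.1 and 40.4 CPM in Cont and OE-BECs, and 13.7 and 27.6 CPM in Cont and OE-LECs (distance 0.57). Lmna, which encodes lamins A and C, had 336 and 597 CPM in Cont and OE-BECs and 389 and 514 CPM in Cont and OE-LECs (distance 0.83). Of the partners, Ell came nearest, at rank 478, and Mllt3 farthest, at rank 8039 (distance 3.02). The distance also counts the size of the differences between libraries. By the Pearson correlation of the same values with those of Dot1l, Mllt3 had 0.13. Aff4, at rank 8015, had -0.69, the lowest of the partners. The 6 libraries are few for such an order, come in pairs with a shared cell source and differ in depth.

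Because VP64 was directed to the Dot1l promoter, the genes around it were listed by position, a choice made after the data had been seen. Of 11 other protein-coding genes of the table that start within 100 kb of the Dot1l start, OE-BECs had 2 higher and 2 lower beyond counting error, and OE-LECs 2 and 1. Genes with under 10 reads in a pair could not be called: Amh, Jsrp1, Oaz1 and Lingo3 in BECs, and Jsrp1 in LECs. Over all genes with at least 10 reads the shares were 27.4% and 30% in OE-BECs, while OE-LECs had 24.2% and 21.4%, so these counts are no result about the window. The nearest start, that of Ap3d1 at -12.9 kb on the opposite strand, had 5674 and 4127 reads in Cont and OE-BECs (log2 ratio -0.08, interval -0.13 to -0.02) and 4932 and 6331 reads in Cont and OE-LECs (log2 ratio 0.13, interval 0.08 to 0.18). Mob3a, at -53.2 kb, was higher in both pairs, with 220 and 311 reads in BECs (log2 ratio 0.88, interval 0.63 to 1.14) and 691 and 1224 reads in LECs (log2 ratio 0.59, interval 0.46 to 0.73). Sf3a2, at 43.0 kb, was higher only in OE-BECs (log2 ratio 0.49, interval 0.35 to 0.62). Btbd2, at -98.1 kb, was lower there (log2 ratio -1.02, interval -1.23 to -0.80). The log2 ratio of Dot1l was the highest in both pairs among the genes of this window with at least 100 normalized counts.

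**Figure D5:**
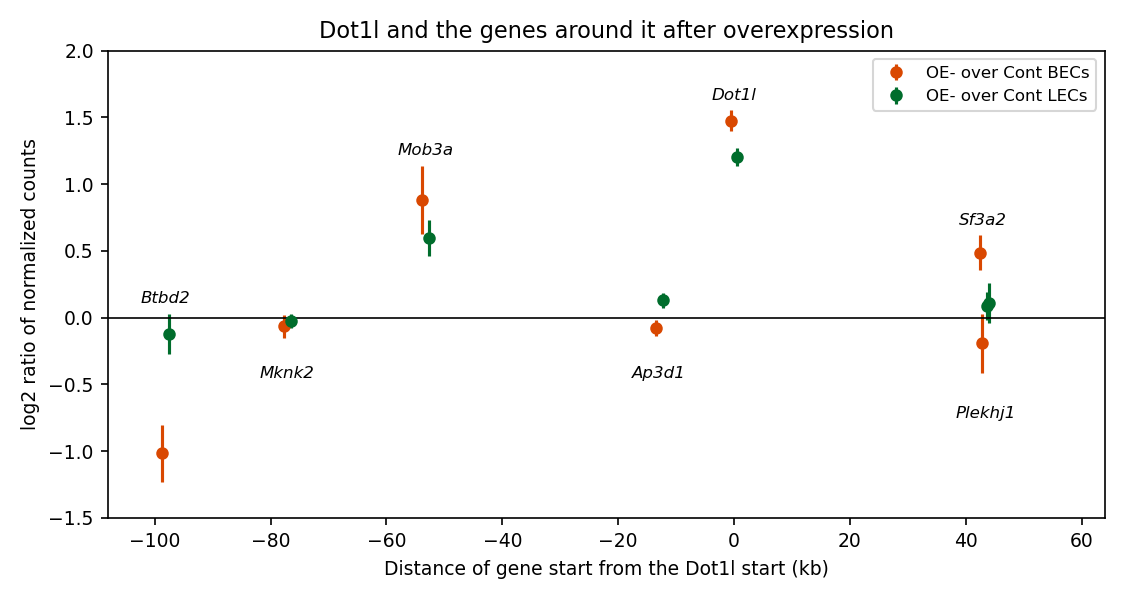
Log2 ratio of normalized counts after overexpression (vertical axis) against the distance of the gene's start from the Dot1l start in kb (horizontal axis), for Dot1l and the genes within 100 kb with at least 100 normalized counts in both pairs; bars are exact 95% counting intervals. Dot1l (1.48 and 1.20) stands above its neighbours, and Mob3a (0.88 and 0.59) is the next highest in both lines.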

How the data were processed

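RNA-seq was analysed in 6 libraries, 1 for each condition, so no replicate was available. Per the study's methods, ScriptSeq libraries were sequenced, skewer (v0.2.2) removed adapters, STAR (v2.7.9a) placed the reads on mm10, and VERSE (v0.1.5) gave a number of reads for each gene. The values deposited by the authors are raw counts of reads for 24421 gene symbols. The setting for strand is not given in the sources used here. Samples were grouped by the genotype and title of the labels.

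Size factors were those of DESeq2 1.42.0 (median of ratios, R 4.3.3) on each pair. Log2 ratios were given exact (Clopper-Pearson) 95% intervals, and the CPM intervals are exact Poisson. No p-value was computed, because each group has 1 library. Differences between the overexpression pairs have normal intervals on the log scale. Python 3.11.15, numpy 2.4.6, scipy 1.17.1 and pandas 2.3.3 were used. Only the log2 ratios and their intervals were tested on simulated data, with Poisson reads that hold no variation beyond counting. Positions and exon lengths came from GENCODE M21 (GRCm38, the assembly of mm10) for all 10 genes, and promoters from RefSeq. The members and lists were chosen with earlier results of these data known. All members are named, with pathway genes changed by more than 1.5-fold and at least 100 normalized counts, and the 5 genes nearest to Dot1l. Alternatives were TMM factors of edgeR 4.0.16, total counts with and without Rn45s, size factors from all 6 libraries, a coefficient of variation of 0.2 assumed between biological samples, other minimums and folds, and the longest transcript as length.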

Additional observations from a re-analysis of the deposited data

How the results depend on the processing

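The log2 ratios of Dot1l and Mllt3 kept their direction and side of 0 in both overexpression pairs under every scaling tried and with a coefficient of variation of 0.2 assumed between biological samples. With that coefficient the members higher beyond their interval became 0 in the cKO-labelled library, 1 in OE-BECs and 1 in OE-LECs, those lower 0, 1 and 1, and the differences between the lines 0, because the interval is wider by construction. With total counts, the members and pathway genes that were higher numbered 5 and 12 in the cKO-labelled library, Cdk9 in OE-BECs became -0.0215, and the difference between the lines for Mllt10 became -0.0021. Without Rn45s, Mllt1 in OE-BECs became 0.0108, the difference between the lines passed for Mllt1 (0.18), and Mllt6 there was no longer beyond counting error (-0.12). Cdk9 in the cKO-labelled library passed under all 4 other scalings, at 0.20 to 0.24. At a fold of 1.5 in place of 3, OE-BECs had 2 members past it upward and 2 downward, and OE-LECs 1 of each. With a minimum of 20 normalized counts, genes past 3-fold numbered 372 up and 153 down (cKO), 222 and 261 (OE-BECs), and 109 and 51 (OE-LECs). Without a minimum they numbered 1833 and 1160, 2086 and 1531, and 1437 and 849. With size factors from all 6 libraries, those of OE-LECs numbered 246 and 168. No paired analysis was possible because each group has 1 library, and for the same reason no library could be left out.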
